A study of Trametes versicolor and Gelatoporia subvermispora with 30 samples.

Results

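Trametes versicolor is a wood-decay fungus. The set described here held 77 of its genes, read far more on milled poplar than in each of 4 groups with cellobiose. The members were chosen by measured values. A gene named by a locus tag belonged to the set when its mean level on poplar was at least 10 CPM and at least 8 times its mean in each of the other 4 groups. CPM, a counts-per-million unit, gives the counted reads of a gene after scaling for library composition with trimmed mean of M-values (TMM) factors. Of 14570 T. versicolor genes in the files, 14528 carried a locus tag, 12253 of those passed a filter on low counts, and 7193 of those reached 10 CPM on poplar. All 77 members passed the filter. Because the poplar libraries chose the members, every statement below on poplar against another group is a description and carries no test.

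RNA sequencing was run on 15 libraries of T. versicolor, 3 in each of 5 groups, from cultures in an adapted Czapek-Dox minimal medium. The poplar cultures held 2 g of milled poplar in 25 mL and no cellobiose. Each of the other groups held cellobiose at 5 g/L: with 2 mM 4-hydroxybenzoic acid (4HBA), with 25 mg of poplar lignin in 25 mL, with 2 mM syringic acid, or with nothing added. Total RNA was depleted of ribosomal RNA before library preparation. Wood and the absence of cellobiose came together in the poplar cultures, so these differences cannot be told apart in any comparison with poplar. The labels do not say that replicates were separate cultures, so the p-values below measure the spread between these libraries.

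White-rot fungi such as T. versicolor break down cellulose, hemicellulose and lignin with secreted enzymes. Cellobiose is a sugar released from cellulose. 4HBA and syringic acid are small aromatic acids related to lignin: poplar lignin carries 4HBA as an ester, and syringic acid has the methoxylated ring of syringyl lignin. All 77 members are protein-coding genes, but the tables used here pair their locus tags with no product or protein, so no function is given for any of them and they are ordered by level and pattern.

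Poplar libraries held 42211470 to 50410869 counts assigned to genes and the other 12 libraries held 16661967 to 27331860, so that 3 counts, the floor used for a gene not detected, corresponded to 0.0613 to 0.205 CPM. The 10 genes with most counts took 41.9 to 48.4% of them in the 4HBA and cellobiose libraries, against 3.84 to 7.45% in the poplar, lignin and syringic acid libraries. That split runs along the groups, so it cannot be told apart from lignin or syringic acid in their comparisons with cellobiose. The comparisons of 4HBA with cellobiose and of lignin with syringic acid stay within 1 side of it. By that share alone, so do the levels on poplar set beside lignin and syringic acid. The TMM factors did not place poplar with them: 0.971 to 1.01 on poplar, against 1.42 to 1.51 with lignin and syringic acid. The factors were 0.649 to 0.750 with 4HBA and cellobiose.

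Together the members took 6.60% ± 0.389 of gene counts on poplar. They took 0.209% ± 0.00237 with 4HBA, 0.367% ± 0.0250 with lignin, 0.399% ± 0.0473 with syringic acid and 0.204% ± 0.0221 with cellobiose alone (SD, n = 3 libraries each). On the TMM scale the members' levels summed to 66740 ± 4681 CPM on poplar, against 3102 ± 130.5 CPM with 4HBA, 2522 ± 185 CPM with lignin, 2739 ± 407 CPM with syringic acid and 2888 ± 178 CPM with cellobiose (SD, n = 3). The 4 sums without poplar lay close together, whereas the shares of raw counts were lower in both groups whose 10 leading genes took most reads.

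The median member had 213 CPM on poplar, with a range of 12.6 to 9929 CPM. The medians were 7.95 CPM with 4HBA, 8.68 CPM with lignin, 8.05 CPM with syringic acid and 7.86 CPM with cellobiose. On poplar, 14 members reached 1000 CPM, 41 lay between 100 and 1000 CPM, and 22 lay below 100 CPM. The ratio of the poplar mean to the highest of the other 4 group means ran between 8.00 and 221, with a median of 13.7. It reached 16 in 34 members, 32 in 17 and 64 in 7.

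The set was not silent without poplar: 38 of 77 members had under 10 CPM in all 4 other groups, and 4 had under 1 CPM in all of them. The group with the second-highest mean also varied. It was lignin for 22 members, cellobiose for 21, syringic acid for 18 and 4HBA for 16. All 3 poplar libraries lay above all 12 others in 77 of 77 members, a pattern that the rule nearly fixes and that 26.8% of all 12295 genes tested also showed. In 47 members the lowest poplar library was still at least 8 times the highest other library. With the rule turned to another group, 6 genes met it for 4HBA, 0 for lignin, 1 for syringic acid and 1 for cellobiose. Those 4 groups share cellobiose and only poplar lacks it, so these counts and the 77 are not on equal terms.

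**Figure D1:**
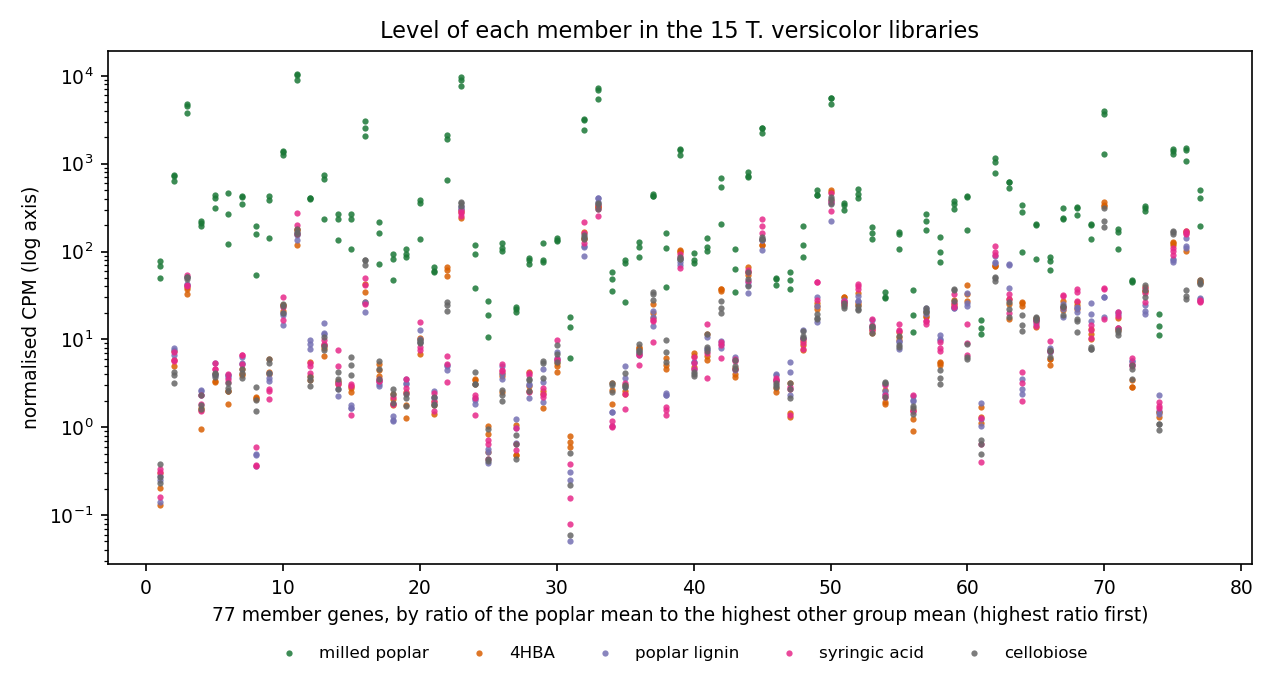
Normalised CPM (log axis) of each of the 77 members in the 15 libraries, 1 point a library, coloured by group, with members ordered by the ratio of the poplar mean to the highest other group mean. Poplar points stand above all others for each member, and the ratio falls along the axis to 8.00 for the last one.

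The member with most reads on poplar was TRAVEDRAFT_166243. It had 10479.8, 10302 and 9006 CPM in the poplar libraries, against 118, 178 and 178 CPM with 4HBA, 136, 162 and 155 CPM with added lignin, 202, 159 and 273 CPM with syringic acid and 168, 158 and 179 CPM with cellobiose. The other groups overlapped one another. CPM is not corrected for gene length, so the order of members by CPM is an order of reads and not of transcripts.

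TRAVEDRAFT_67500 followed with 9604, 8989.7 and 7569 CPM on poplar, against 238 to 366 CPM over the 12 other libraries. TRAVEDRAFT_69281 had 7183, 6896 and 5516 CPM on poplar, against 256 to 409 CPM elsewhere. TRAVEDRAFT_70557 had 5649, 5606 and 4777 CPM on poplar, against 219.9 to 506 CPM elsewhere. These 3 kept a sizeable level without wood, so that their ratios of 24.9, 16.6 and 11.6 were moderate for the set.

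TRAVEDRAFT_56326 combined a high level with a high ratio: 4835, 4557 and 3827 CPM on poplar, against 33.2 to 54.3 CPM in the other libraries, a ratio of 86.9. TRAVEDRAFT_161508 had 3208, 3171 and 2423 CPM on poplar, against 89.0 to 217 CPM elsewhere, and TRAVEDRAFT_19838 had 2548, 2531 and 2234 CPM on poplar, against 104 to 235 CPM elsewhere. TRAVEDRAFT_142538 had 3059, 2542 and 2049.8 CPM on poplar, against 20.6 to 80.7 CPM elsewhere. In all 4 the third poplar library was the lowest of the 3 and lay far above the other groups. TRAVEDRAFT_144973 and TRAVEDRAFT_158015 averaged 1386 ± 89.6 and 1381 ± 125 CPM on poplar (SD, n = 3), with ratios of 8.34 and 13.7.

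The members with the highest ratios were mostly read at a few CPM or less without wood. TRAVEDRAFT_113478 had 68.6, 50.4 and 78.6 CPM on poplar, against 0.131 to 0.386 CPM in the other libraries, where it stood near the floor of 3 counts, and its ratio of 221 rests on few reads there. TRAVEDRAFT_55496 had 723, 636 and 746 CPM on poplar, against 3.23 to 7.99 CPM elsewhere, a ratio of 95.01. TRAVEDRAFT_26555 had 222, 214 and 198 CPM on poplar, against 0.955 to 2.64 CPM elsewhere, a ratio of 84.2.

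The next members by ratio had a moderate level on poplar and low levels elsewhere. TRAVEDRAFT_55900 had 403, 316 and 440.99 CPM on poplar, against 3.28 to 5.40 CPM in the 12 other libraries, and TRAVEDRAFT_149601 had 414, 432 and 348 CPM on poplar, against 3.64 to 6.72 CPM elsewhere. TRAVEDRAFT_144610 had 267, 467 and 121 CPM on poplar, against 1.84 to 4.06 CPM elsewhere. Its poplar libraries were the most scattered of any member, with a coefficient of variation (CV, the SD as a percent of the mean) of 60.9%, yet each of them exceeded all others many times over.

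The edge of the set was not marked by a gap. Just inside it stood TRAVEDRAFT_58060, TRAVEDRAFT_127414 and TRAVEDRAFT_144973 with ratios of 8.00, 8.15 and 8.34. Just outside it stood TRAVEDRAFT_171787, TRAVEDRAFT_41074 and TRAVEDRAFT_31114 with ratios of 7.99, 7.95 and 7.94. Genes that the files name by a symbol are outside the rule. One of them, MnP7s, whose symbol stands for a manganese peroxidase, a class of secreted lignin-oxidising enzyme, met the thresholds with 75.4 ± 3.73 CPM on poplar (SD, n = 3), against group means of 0.497 to 1.05 CPM elsewhere, a ratio of 71.5.

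The members were scattered between the 3 poplar libraries. Their CV over those libraries had a median of 18.1%, with a range of 1.78 to 60.9%, against a median of 4.93% for the 7128 other genes at 10 CPM or more on poplar. In the other groups the gap was smaller among genes at 10 CPM or more in the group. The median CV with 4HBA was 9.67% for 35 members and 7.00% for other genes. It was 12.9% for 35 members and 7.25% for other genes with lignin. Syringic acid gave 17.1% for 33 members and 9.90% for other genes, and cellobiose 8.31% for 33 members and 6.82%. The poplar median covers all members, so these gaps rest on different members. Whether the wider gap is particular to poplar was not tested. The steadiest members on poplar were TRAVEDRAFT_28580 with 402, 409.6 and 395 CPM, TRAVEDRAFT_127904 with 47.7, 46.0 and 45.6 CPM and TRAVEDRAFT_138035 with 451, 431 and 428 CPM.

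Poplar replicate 1 was below 0.6 times the mean of replicates 2 and 3 in 22 of 77 members (28.6%), against 1.04% of the 7205 genes at 10 CPM or more on poplar. Those 7205 genes include the 77 members. The same poplar libraries chose the members, so this contrast, like that of the CV, is a description and carries no test. The threshold of 0.6 was chosen after the values were seen. Only 1 member was that low in replicate 2 and 1 in replicate 3, and among the 7128 other genes 4 and 16 were. For the 22 members the ratio of replicate 1 to the mean of the other poplar libraries ran between 0.289 and 0.544, with a median of 0.376. For the other 55 members it ran between 0.618 and 1.33, with a median of 1.06. In all 22, each poplar library, replicate 1 included, remained above all 12 libraries of the other groups.

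The members low in replicate 1 had poplar means of 12.6 to 2978 CPM, and none of the 5 members with most reads was among them. TRAVEDRAFT_63826 had 1278, 3964 and 3694 CPM in poplar replicates 1, 2 and 3, and TRAVEDRAFT_110790 had 649, 2141 and 1891 CPM. TRAVEDRAFT_136117 had 39.2, 162 and 109 CPM, and TRAVEDRAFT_43058 had 12.1, 36.5 and 19.0 CPM. In each of these, replicate 1 was well under both other libraries. Over all 77 members, 36 were lowest in replicate 1, 10 in replicate 2 and 31 in replicate 3, against 35.2, 28.4 and 36.5% of the 7128 other genes. Of the 14 members at 1000 CPM or more, 11 were lowest in replicate 3 and 3 in replicate 1, against 40 and 69 of the 136 other genes at that level. Without poplar replicate 1 the rule found 86 genes, all 77 members among them.

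**Figure D2:**
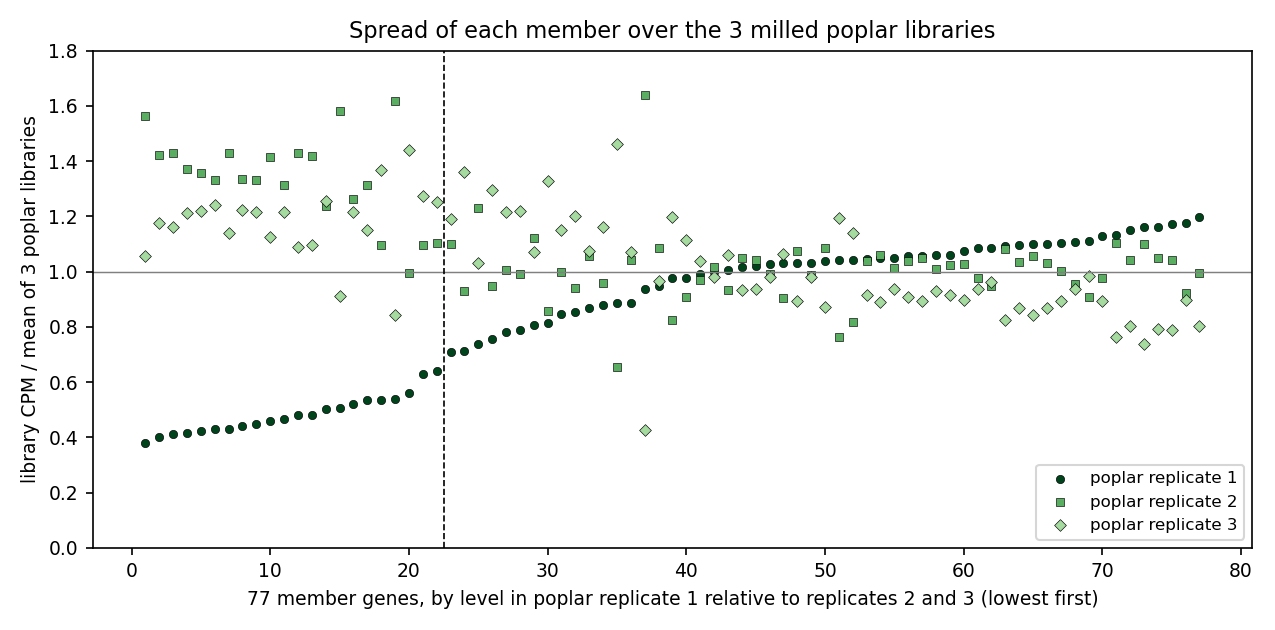
Level of each of the 77 members in each poplar library, divided by the mean of the 3 poplar libraries, with members ordered by replicate 1 relative to replicates 2 and 3. Left of the dashed line are the 22 members with replicate 1 below 0.6 times the mean of replicates 2 and 3.

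The rule made no contrast among the 4 groups without poplar, but their means entered it as an upper limit, so a gene that rose strongly in 1 of them was less likely to be a member and the members' shares below are not independent of the choice. The 4 comparisons among these groups were tested for all 12295 genes with the quasi-likelihood test of edgeR, called at a Benjamini-Hochberg adjusted p below 0.05. None of the 4 comparisons passed in 33 of 77 members (42.9%) and in 4145 of all 12295 genes (33.7%). The fit includes the poplar libraries, where members had a median CV of 18.1%, against 4.93% for other genes at 10 CPM or more. That scatter enters the spread estimated for each member and can make a call less likely. The shares of members and of all genes below are thus not on equal terms. The 3 comparisons with cellobiose share the same 3 cellobiose libraries, so their values are set side by side and are not independent of one another.

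With 4HBA against cellobiose, 7 members rose and 7 fell, each 9.09% of the set, against 9% of all genes higher and 7.35% lower. With only the 4HBA and cellobiose libraries in the fit, 14 members were higher and 9 lower. The share of all genes called in that fit was not counted, so the shares above are no background for it. The median log2 change was -0.03 over the members and 0.00 over all genes. The largest rise was that of TRAVEDRAFT_50178, which had 32.8, 27.2 and 41.6 CPM with 4HBA, against 6.30, 5.98 and 8.91 CPM with cellobiose (log2 change 2.25 ± 0.35 SE, adjusted p = 0.000414). TRAVEDRAFT_127414 had 173, 166 and 101 CPM with 4HBA, against 31.5, 36.9 and 29.1 CPM with cellobiose (log2 change 2.17 ± 0.19 SE, adjusted p = 1.26e-06). TRAVEDRAFT_110790 had 62.1, 67.4 and 53.3 CPM with 4HBA, against 21.0, 24.6 and 26.3 CPM with cellobiose (log2 change 1.34 ± 0.32 SE, adjusted p = 0.00900). In all 3 members no 4HBA library overlapped a cellobiose library, which their choice as the largest called rises makes likely.

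The largest falls with 4HBA were smaller. TRAVEDRAFT_142538 had 26.4, 34.9 and 42.9 CPM with 4HBA, against 70.2, 80.7 and 80.3 CPM with cellobiose (log2 change -1.15 ± 0.22 SE, adjusted p = 0.00211), without overlap. TRAVEDRAFT_75646 fell by 1.15 and TRAVEDRAFT_138035 by 0.61 on the log2 scale (adjusted p = 0.0314 and 0.0414, edgeR). Both calls were lost when single libraries were left out: TRAVEDRAFT_138035 without any 1 of cellobiose replicates 1, 2 and 3 or 4HBA replicates 1 and 2 (adjusted p of 0.0530 to 0.152), and TRAVEDRAFT_75646 without any 1 of cellobiose replicates 1 and 3 or 4HBA replicates 1, 2 and 3 (0.0508 to 0.119). The count of 7 lower members was 3 without cellobiose replicate 1, 2 without cellobiose replicate 3, 2 without 4HBA replicate 1, and 4 without 4HBA replicate 2 or 3. The share of all genes called was not recounted.

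With poplar lignin against cellobiose, 17 members rose (22.1%) and 16 fell (20.8%), against 26.9% of all genes higher and 23% lower. With syringic acid against cellobiose, 17 rose (22.1%) and 16 fell (20.8%), against 27.1% of all genes higher and 22.4% lower. The members' shares were close to or below the background in both comparisons, where the split in the share of the 10 leading genes runs along the groups. The median log2 change over the members was -0.05 with lignin and 0.04 with syringic acid, against 0.07 over all genes in each. Upper-quartile scaling moved the median of all genes up by 0.13 in both, and the splits became 23 higher and 14 lower with lignin and 22 higher and 13 lower with syringic acid. Without cellobiose replicate 2, 11 members were called higher in each comparison. Shares of all genes called were not counted under these alternatives.

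The largest fall among the members was that of TRAVEDRAFT_63826, 1 of the 22 low in poplar replicate 1. It had 18.03, 30.1 and 30.1 CPM with added lignin and 38.3, 17.2 and 37.0 CPM with syringic acid, against 222, 188 and 313 CPM with cellobiose and 367, 332 and 335 CPM with 4HBA. Its log2 change against cellobiose was -3.21 ± 0.39 SE, adjusted p = 9.90e-06 with lignin and -2.96 ± 0.38 SE, adjusted p = 1.89e-05 with syringic acid. The lignin and syringic acid libraries lay well under all cellobiose and 4HBA libraries.

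TRAVEDRAFT_46975 had 2.36, 3.49 and 2.76 CPM with added lignin and 4.196, 1.99 and 3.16 CPM with syringic acid, against 14.6, 12.3 and 19.1 CPM with cellobiose (log2 change -2.42 ± 0.39 SE, adjusted p = 0.000139 with lignin and -2.27 ± 0.39 SE, adjusted p = 0.000246 with syringic acid). TRAVEDRAFT_110790 had 4.54, 5.10 and 5.03 CPM with lignin, against the cellobiose values given above (log2 change -2.29 ± 0.35 SE, adjusted p = 7.78e-05), and it had risen with 4HBA. TRAVEDRAFT_136117 had 1.71, 1.59 and 1.36 CPM with syringic acid, against 7.27, 5.51 and 9.84 CPM with cellobiose (log2 change -2.27 ± 0.46 SE, adjusted p = 0.000803). TRAVEDRAFT_147827, with a ratio of 62.9 on poplar, had 0.362, 0.499 and 0.485 CPM with added lignin and 0.588, 0.358 and 0.371 CPM with syringic acid, against 2.06, 1.53 and 2.90 CPM with cellobiose (log2 change -2.26 ± 0.61 SE, adjusted p = 0.00629 with lignin and -2.25 ± 0.63 SE, adjusted p = 0.00772 with syringic acid). None of the 4 overlapped between the groups named, which is likely for called changes of this size. All 4 are among the 22 low in poplar replicate 1.

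Rises were led by TRAVEDRAFT_127414, which had 144, 116 and 111 CPM with added lignin and 163, 173 and 158 CPM with syringic acid, about as high as with 4HBA, against 29.1 to 36.9 CPM with cellobiose. Its log2 change was 1.93 ± 0.19 SE, adjusted p = 1.15e-06 with lignin and 2.34 ± 0.19 SE, adjusted p = 2.37e-07 with syringic acid. It was thus higher in each of the 3 groups with an added aromatic than in cellobiose alone, and still 8.15 times as high on poplar as in the highest of them, with 1080.3, 1505 and 1435 CPM there. TRAVEDRAFT_62801 had 11.3, 10.1 and 9.78 CPM with added lignin and 7.88, 9.42 and 7.40 CPM with syringic acid, against 3.60, 4.52 and 3.12 CPM with cellobiose (log2 change 1.47 ± 0.22 SE, adjusted p = 7.29e-05 with lignin and 1.13 ± 0.23 SE, adjusted p = 0.000773 with syringic acid). TRAVEDRAFT_146369 had 34.9, 27.2 and 37.5 CPM with syringic acid, against 17.0, 12.03 and 16.3 CPM with cellobiose (log2 change 1.14 ± 0.14 SE, adjusted p = 1.45e-05). TRAVEDRAFT_50178 had 26.1, 23.7 and 33.8 CPM with lignin, against 5.98 to 8.91 CPM with cellobiose (log2 change 1.97 ± 0.35 SE, adjusted p = 0.000272).

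With lignin against syringic acid, 5 members rose (6.49%) and 8 fell (10.4%), against 3.95% of all genes higher and 4.79% lower. The median log2 change was 0.00 over the members and -0.01 over all genes. TRAVEDRAFT_50178 had the lignin values given above, against 9.13, 6.60 and 14.9 CPM with syringic acid (log2 change 1.44 ± 0.32 SE, adjusted p = 0.0110), and this call was lost without syringic acid replicate 1 (adjusted p = 0.0526, edgeR). TRAVEDRAFT_157325 had 38.7, 71.5 and 70.6 CPM with lignin, against 28.7, 19.96 and 32.6 CPM with syringic acid (log2 change 1.15 ± 0.23 SE, adjusted p = 0.00631). TRAVEDRAFT_28580 had 8.79, 7.76 and 9.83 CPM with lignin, against 4.94, 4.17 and 5.36 CPM with syringic acid (log2 change 0.86 ± 0.13 SE, adjusted p = 0.000709). No library overlapped between lignin and syringic acid in these 3, which their choice as the largest called rises makes likely.

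The falls with lignin against syringic acid were under 1 on the log2 scale in the named members. TRAVEDRAFT_19838 had 104, 135 and 136 CPM with lignin, against 197, 161 and 235 CPM with syringic acid (log2 change -0.66 ± 0.13 SE, adjusted p = 0.00466). TRAVEDRAFT_60916 fell by 0.75 and TRAVEDRAFT_161508 by 0.65 (adjusted p = 0.0243 and 0.0260, edgeR). Both lost their call without lignin replicate 1 or syringic acid replicate 1 or 3, and TRAVEDRAFT_60916 also without lignin replicate 2 (adjusted p of 0.0598 to 0.135 in all). The count of 8 lower members was 2 without lignin replicate 1, 5 without lignin replicate 2, 3 without syringic acid replicate 1, 15 without syringic acid replicate 2 and 2 without syringic acid replicate 3. The count of 5 higher members was 3 without lignin replicate 1 or syringic acid replicate 1. With only the lignin and syringic acid libraries in the fit, 2 members were higher and 1 lower, and TRAVEDRAFT_157325, TRAVEDRAFT_19838, TRAVEDRAFT_60916 and TRAVEDRAFT_161508 did not pass (adjusted p of 0.0597 to 0.171). For these alternatives, shares of all genes called were not counted.

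**Figure D3:**
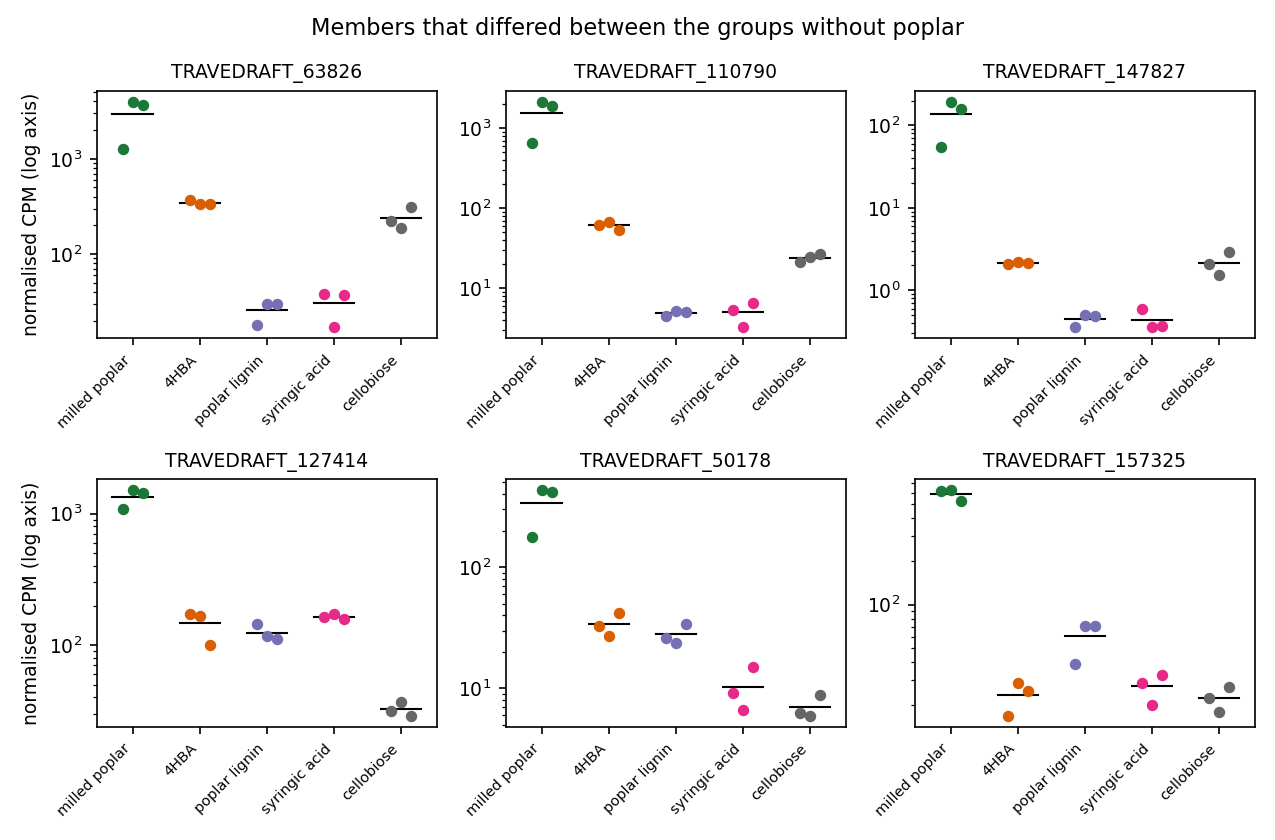
Normalised CPM (log axis, a separate range for each panel) of 6 members in the 3 libraries of each group, 1 point a library, with a bar at the group mean. The upper 3 are low with lignin and syringic acid against cellobiose, and in the lower 3 at least 1 group with an added aromatic is above cellobiose.

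The members low in poplar replicate 1 were set beside the others in the comparisons without poplar, as a description: the split was made after their values were seen and no difference between its sides was tested. With lignin against cellobiose, 9 of the 22 fell and 1 rose, against 7 lower and 16 higher of the other 55. Of all genes, 23% fell and 26.9% rose. With syringic acid against cellobiose, 9 of the 22 fell and 0 rose, against 7 lower and 17 higher of the other 55. Of all genes, 22.4% fell and 27.1% rose. With 4HBA against cellobiose, 0 of the 22 fell and 2 rose, against 7 lower and 5 higher of the other 55. Of all genes, 7.35% fell and 9% rose. With lignin against syringic acid, 0 of the 22 fell and 1 rose, against 8 lower and 4 higher of the other 55. Of all genes, 4.79% fell and 3.95% rose. In the last 2 comparisons few genes were called on either side. The median log2 change of the 22, against that of the other 55, was -0.52 against 0.15 with lignin, -0.46 against 0.19 with syringic acid and -0.04 against 0.02 with 4HBA. Of the 53 genes outside the set that were also low in poplar replicate 1, 27 (50.9%) fell with lignin against cellobiose. The Spearman rank correlation of the replicate 1 ratio with the log2 change against cellobiose was also computed. Over the 77 members it was 0.23 with lignin, 0.37 with syringic acid and -0.10 with 4HBA. Over the 7128 other genes at 10 CPM or more on poplar it was -0.12, -0.01 and 0.06. The calls came from a fit that includes the poplar libraries, so the scatter that defined the 22 also widened their SE. At a given change, a member among the 22 was thus less likely to be called, and the counts of the 22 and the 55 are not on equal terms.

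**Figure D4:**
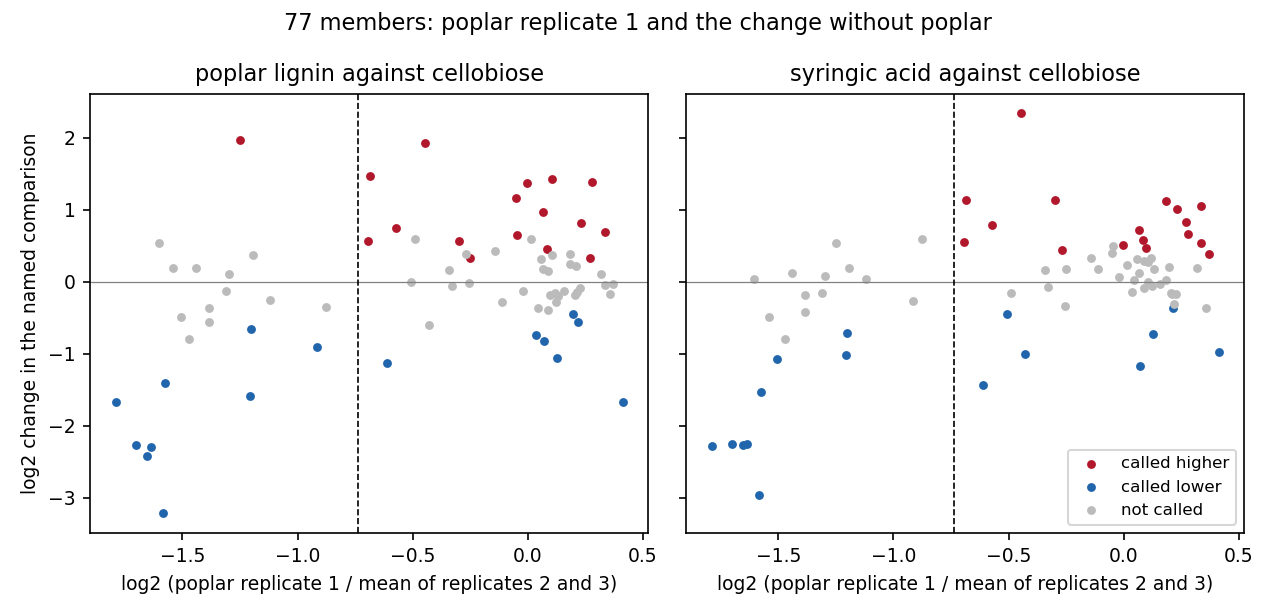
Log2 change with lignin (left) and syringic acid (right) against cellobiose for each of the 77 members, by the log2 ratio of poplar replicate 1 to the mean of replicates 2 and 3, with calls in colour. Left of the dashed line, at 0.6 times, lie the 22 members low in replicate 1, 9 of them called lower in each panel.

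A few members were neighbours in the genome. In the order of genes in the RefSeq table, 9 of 77 members (11.7%) had another member within 10 consecutive genes. Of the 171 scaffolds read from that table, 16 held members, with at most 13 on 1 of them. No such count was made for other sets of 77 genes, and scaffolds were not weighted by their number of genes. These counts therefore do not show whether members lie together more often than other genes. TRAVEDRAFT_36998 and TRAVEDRAFT_147827 stood next to each other, and both were low in poplar replicate 1: 6.10, 17.9 and 13.9 CPM for TRAVEDRAFT_36998 and 54.2, 193 and 159.9 CPM for TRAVEDRAFT_147827. TRAVEDRAFT_26272 and TRAVEDRAFT_141077, 8 genes apart, were also both low in that library, with 72.8, 216 and 164 CPM and 108, 265 and 232 CPM. TRAVEDRAFT_149601 and TRAVEDRAFT_29435 stood next to each other too, and neither was low in it by the 0.6 threshold.

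The only run of 3 members held TRAVEDRAFT_50178, TRAVEDRAFT_129010 and TRAVEDRAFT_30448 within 9 consecutive genes. TRAVEDRAFT_50178 had 177, 429 and 413 CPM on poplar and moved with 4HBA and lignin as given above. TRAVEDRAFT_129010 had 83.8, 80.8 and 72.3 CPM on poplar, against 2.14 to 4.26 CPM elsewhere, and TRAVEDRAFT_30448 had 11.3, 14.1 and 19.4 CPM on poplar, against 0.939 to 2.31 CPM elsewhere. Of the 6 genes between them, a transfer RNA gene did not pass the filter and has no values here. TRAVEDRAFT_30442, beside TRAVEDRAFT_50178, averaged 76.9 ± 10.2 CPM on poplar, against 1108 ± 206 CPM with 4HBA, 56.6 ± 13.2 CPM with lignin, 266 ± 70.7 CPM with syringic acid and 481 ± 96.0 CPM with cellobiose (SD, n = 3). TRAVEDRAFT_30445, like the members, had all poplar libraries above all others. It averaged 326 ± 19.8 CPM on poplar, 3.79 times its next mean of 86.0 ± 26.03 CPM with 4HBA. Among the 143 genes tested that stood next to a member and were not members, 19 (13.3%) had a poplar mean at least 2 times each other mean, against 816 (6.68%) of all 12218 tested genes outside the set.

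**Figure D5:**
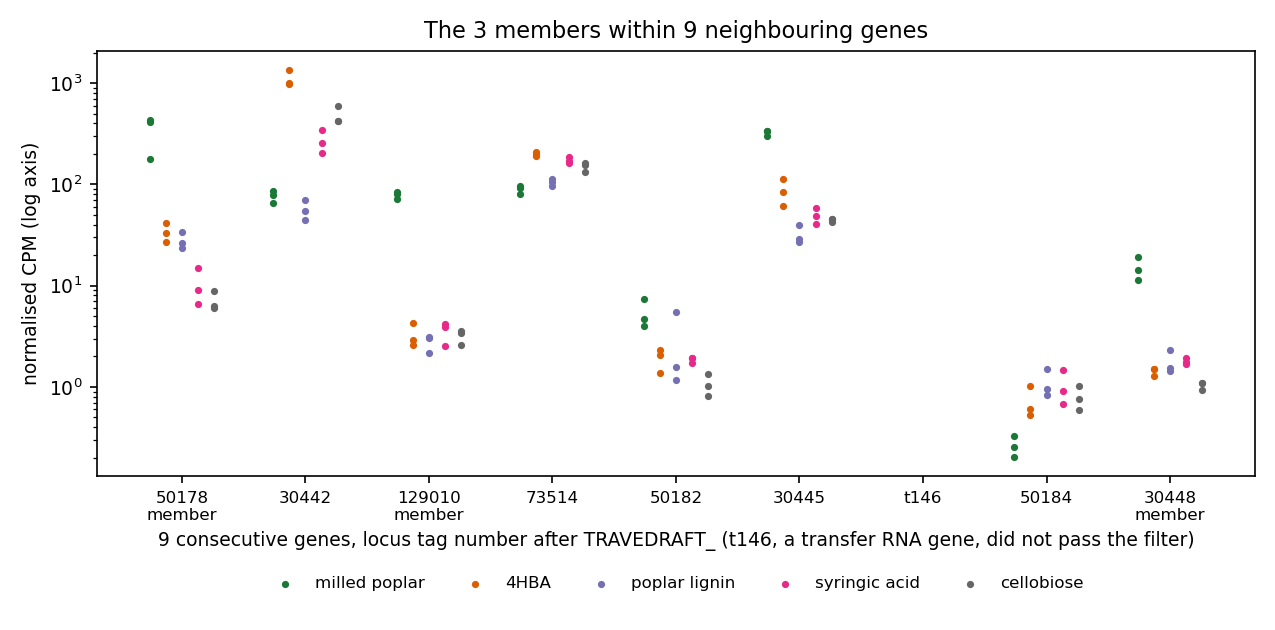
Normalised CPM (log axis) over 9 consecutive genes in the 3 libraries of each group, 1 point a library, with groups side by side at each gene and no points for the transfer RNA gene t146, which did not pass the filter. All poplar points stand above all others at the 3 members and at TRAVEDRAFT_30445, and below those of 4HBA at TRAVEDRAFT_30442.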

How the data were processed

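The authors deposited, for each of the 15 T. versicolor libraries, a table of raw read counts per gene. Per the submitters' processing notes, FastQC, Bowtie2, Bowtie and HTSeq were used. Tool roles and versions, the genome build and any use of strand in counting were not given in the sources used here. Rows that name no gene were left out. They held 45.8 to 48.7% of each library's counts with 4HBA and cellobiose, against 9.60 to 14.2% with poplar, lignin and syringic acid. This split runs along the same groups as that of the 10 leading genes.

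Genes were filtered by group (filterByExpr) and scaled with TMM in edgeR 4.0.16 (R 4.3.3). All 15 libraries entered 1 quasi-likelihood fit with a term for each group, and p-values were adjusted by Benjamini-Hochberg over all 12295 genes at 0.05. The biological coefficient of variation was 0.11. The SE of a log2 change is its size divided by the square root of its F statistic. Replicates differed by more than counting noise (chi-square of 7.24 to 61.5 per gene), so none was a copy. Replicate numbers only name libraries. Counting error is small beside the replicate spread except near the floor. Per gene, intervals were not computed, and floors cover counting error only.

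The members and lists were chosen with earlier results of these data known. Members are named in the text by rule: the 12 with most CPM on poplar, the 8 highest ratios, the 3 on each side of the threshold, the 3 largest changes each way in each comparison, the 3 most and the 3 least variable on poplar, and neighbouring members. The 25 lists planned by product or protein could not be matched (0 found a product), so none is reported. Gene order and symbols came from RefSeq's T. versicolor table, which held 14560 of 14570 names. No gene length, coordinate or sequence was used. Alternatives covered scaling (RLE, upper quartile, none, TMM without genes above 1% of counts), the filter, the thresholds, DESeq2 1.42.0, fits of the compared groups alone and leaving out each library.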

Additional observations from a re-analysis of the deposited data

How the results depend on the processing

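The number of members was 77 as reported and 210 with a 4-fold rule, 34 with a 16-fold rule, and 47 when the lowest poplar library had to reach 8 times the highest other library. Other scalings, filters and CPM minimums gave 60 to 83, and leaving out single libraries gave 76 to 86. With unscaled libraries, 56 of the 60 genes found were members. Fitted alone, 4HBA and cellobiose gave 14 members higher with 4HBA, and lignin and syringic acid gave 2 higher and 1 lower with lignin. Leaving out single libraries gave 5 to 10 members higher and 2 to 5 lower with 4HBA, 11 to 17 higher with lignin, 11 to 20 higher with syringic acid, and 3 to 5 higher and 2 to 15 lower for lignin against syringic acid. Upper-quartile scaling moved the share of higher calls to 62.2% with lignin and 62.9% with syringic acid, against 51.5% in each as reported. DESeq2 called 10 members higher and 9 lower with 4HBA, 16 and 19 with lignin, 15 and 19 with syringic acid, and 6 and 11 for lignin against syringic acid. The cause of these shifts was not tested. Shares of all genes called were not counted under the alternatives, so the counts do not show whether members moved more than other genes.

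Of 288 values of the 24 named changes under alternatives, 22 no longer passed the threshold, 0 changed sign, and 266 did neither. Alternatives chosen after seeing the data gave 20 members low in poplar replicate 1 at a threshold of 0.5 and 26 at 0.7, and 22 under each scaling. No paired analysis was possible because the labels give no replicate numbers shared between groups. Depth limits the ratios of members near the floor without poplar.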
